A study of Mus musculus with 6 samples.

Results

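The 10 genes studied here encode transcription factors that maintain blood stem cells, and were followed in wild-type and Cdk19 knockout hematopoietic stem cells (HSCs): Tal1, Lyl1, Lmo2, Gata2, Runx1, Erg, Fli1, Etv6, Mecom and Hlf. They were chosen by symbol, with earlier results of these data known. A transcript cluster, the set of probes that the array assigns to 1 gene, was taken where its gene symbol on the platform was exactly one of the 10. Each of the 10 genes had 1 cluster, out of 30145 genes named by a single symbol, and all 10 clusters passed the filter on dim clusters. The series holds 6 microarrays of sorted bone marrow HSCs from mice of 6 to 8 weeks, 3 arrays labelled wild type (WT) and 3 labelled CDK19-/-. No strain, sex, animal number per array, sorting gate or deleted part of Cdk19 is given in the labels, and no treatment is named. In the knockout arrays Cdk19, which encodes a kinase of the Mediator complex, read 11.49, 11.42 and 11.51 against 12.49, 12.45 and 12.38 in wild type. That is a log2 change of -0.97 (standard error, SE, 0.05; adjusted p = 3.2e-04 by limma), with p-values adjusted by the Benjamini-Hochberg method over all clusters tested here and throughout. The groups do not overlap, and where the deletion lies relative to the probes is not stated.

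These factors act on one another and on shared DNA. TAL1 and LYL1 are basic helix-loop-helix (bHLH) proteins that bind E-box DNA when paired with an E protein such as TCF3. LMO2 binds no DNA itself and bridges the bHLH pair to LDB1 and to GATA factors such as GATA2. RUNX1 pairs with CBFB, ERG and FLI1 are ETS factors that bind GGAA cores, and ETV6 is an ETS repressor. MECOM is a zinc finger factor of long-term HSCs, and HLF is a bZIP factor used as an HSC marker. In blood stem and progenitor cells TAL1, LYL1, LMO2, GATA2, RUNX1, ERG and FLI1 are known to bind many of the same enhancers. ID proteins work the other way, since they pair with E proteins and keep them from DNA.

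By limma 4 of the 10 genes were called lower in the knockout (adjusted p under 0.05), against 4.84% of all clusters tested: Lyl1, Hlf, Erg and Lmo2. The call on Lmo2 was lost in 10 of 13 alternatives. The start regions of Lyl1, Hlf and Erg, and that of Tal1, the close relative of Lyl1 that was not called, are shown as those of the genes with the largest changes and of the nearest relative of Lyl1 among them. They come from the RefSeq promoter table of GRCm38.p6, which held windows for 8 of the 10 genes, 14 in all. A window of 300 bases runs from 250 bases before to 50 after an annotated start, on the strand of the gene. Capitals mark the ETS core GGAA and GATA, each on either strand, and where several starts are annotated the one farthest upstream is given. Lyl1 lies at chr8:84701207-84701506 (plus strand), Hlf at chr11:90390868-90391167 (minus), Erg at chr16:95586544-95586843 (minus) and Tal1 at chr4:115056176-115056475 (plus).
Lyl1: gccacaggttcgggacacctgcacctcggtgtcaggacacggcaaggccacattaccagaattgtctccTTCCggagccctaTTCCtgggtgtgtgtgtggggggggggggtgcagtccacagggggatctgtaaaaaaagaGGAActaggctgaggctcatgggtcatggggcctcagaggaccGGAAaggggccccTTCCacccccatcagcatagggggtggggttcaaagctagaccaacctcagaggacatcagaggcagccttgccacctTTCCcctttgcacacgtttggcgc
Hlf: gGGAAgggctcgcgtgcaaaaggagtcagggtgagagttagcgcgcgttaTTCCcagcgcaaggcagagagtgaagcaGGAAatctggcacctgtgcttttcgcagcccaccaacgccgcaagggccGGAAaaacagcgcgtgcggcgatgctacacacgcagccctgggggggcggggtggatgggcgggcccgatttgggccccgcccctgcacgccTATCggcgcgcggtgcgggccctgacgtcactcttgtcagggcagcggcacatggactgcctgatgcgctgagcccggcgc
Erg: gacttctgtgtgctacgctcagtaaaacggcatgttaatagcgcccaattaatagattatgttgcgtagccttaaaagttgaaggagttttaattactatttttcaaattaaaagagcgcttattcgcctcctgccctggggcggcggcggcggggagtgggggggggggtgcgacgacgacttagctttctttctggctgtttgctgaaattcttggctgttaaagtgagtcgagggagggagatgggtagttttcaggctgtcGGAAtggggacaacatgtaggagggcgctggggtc
Tal1: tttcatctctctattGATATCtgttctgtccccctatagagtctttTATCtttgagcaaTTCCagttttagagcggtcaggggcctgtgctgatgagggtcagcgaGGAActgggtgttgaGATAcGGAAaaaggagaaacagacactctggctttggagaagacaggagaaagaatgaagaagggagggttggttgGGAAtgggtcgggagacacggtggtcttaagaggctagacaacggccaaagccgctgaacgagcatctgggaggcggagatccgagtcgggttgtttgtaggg

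The Lyl1 window held 6 matches to GGAA and none to GATA, and that of Tal1 held 4 to each. The Hlf window held 4 matches to GGAA and 1 to GATA, and that of Erg 1 and none. These counts depend on the start: the other Tal1 window held 4 matches to GGAA and 0 to GATA, and the other Erg windows held 4 and 1 in one case and 2 and 3 in the other. GGAA is in 96% of the 32851 promoter windows of the table and GATA in 57.9%. The bHLH site, searched as the E-box CANNTG, was found once in the windows of Lyl1 and Tal1 and 2 times in that of Hlf, and is in 72.3% of all windows. The RUNX core TGTGGT, in 16.8% of all windows, was in none of the 4. All were searched on both strands, GATATC counts as 2 GATA matches, and an E-box may share bases with the other motifs. A match is only a run of letters, and which start is used in these cells was not measured.

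Across all 10 genes the log2 change (knockout minus wild type) ran from -1.33 to -0.04, so every member had a lower mean in the knockout. Its median was -0.21, against 0.003 over all 39543 clusters tested, of which 49.3% had a change under 0. By limma, with a call at a Benjamini-Hochberg adjusted p under 0.05 over all clusters, 4 members were called lower, 0 higher and 6 not called. Of all clusters tested, 4.84% were called lower and 2.96% higher. That share depends on brightness: 1914 of 39543 clusters were called lower here, and 2237 of 26376 with the dimmest 60% left out. At an unadjusted p under 0.05, 6 members were lower and 0 higher, against 12.3% of all clusters lower. In 8 members all 3 knockout arrays lay below all 3 wild-type arrays, while this held for 14.9% of clusters and the opposite order for 11.6%. Because the members were chosen with earlier results of these data known, these shares are a description and not a test. In the bulk RNA of a sorted population, fewer cells of a type and less RNA per cell cannot be told apart.

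**Figure D1:**
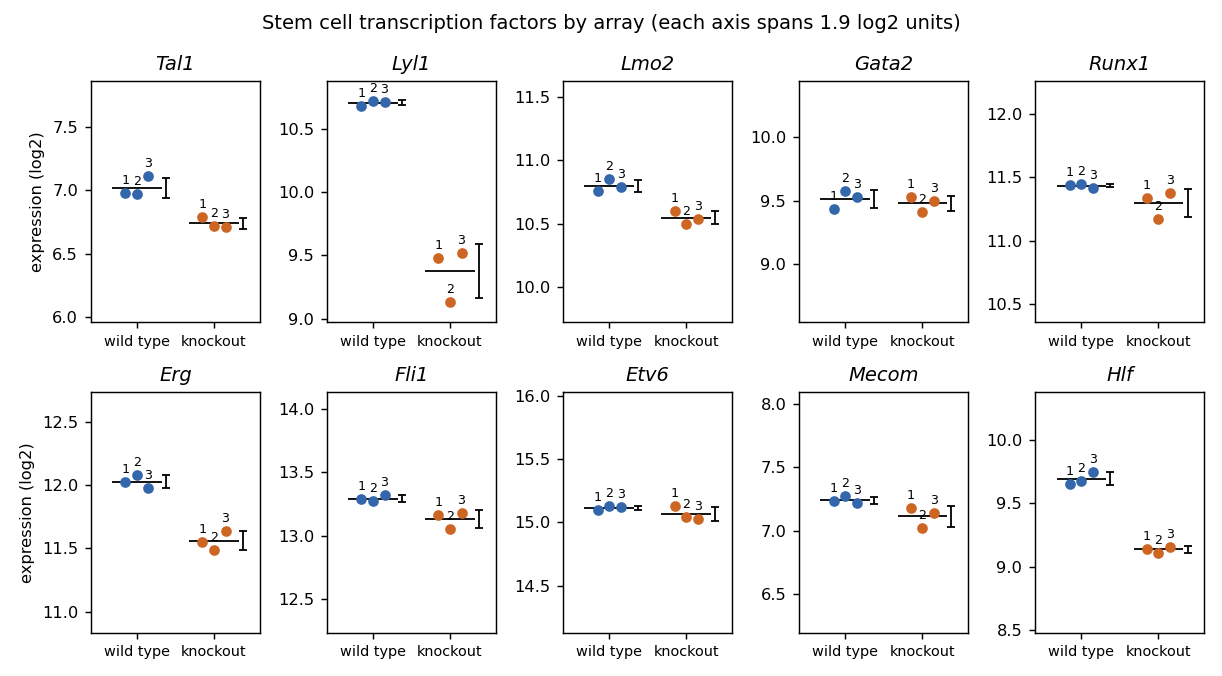
Deposited expression of the 10 genes in each array, taken as log2. Numbers mark the array within its genotype, lines the mean and bars 1 SD (n = 3). Each panel spans the same range, so distances can be compared between panels; Lyl1, Hlf and Erg show the widest gaps, and the groups of Gata2 and Etv6 overlap.

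Lyl1 stood out among the bHLH genes. Its level was 10.68, 10.72 and 10.71 in the wild-type arrays and 9.48, 9.13 and 9.52 in the knockout arrays. The wild-type arrays agreed closely, and all 3 knockout arrays were more than 1 log2 unit lower, with array 2 the lowest. The mean was 10.70 ± 0.02 in wild type and 9.38 ± 0.21 in knockout (SD, n = 3 each). This gave a log2 change of -1.33 (SE 0.11; adjusted p = 0.0014 by limma). It is 2.51-fold lower if the deposited scale is log2. The change was -1.20 without knockout array 2, the smallest value among the 13 alternatives.

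Tal1, which encodes the factor needed to form blood stem cells in the embryo, read 6.98, 6.97 and 7.11 in wild type and 6.79, 6.72 and 6.71 in knockout. These groups do not overlap, but the difference of -0.28 (SE 0.07, 95% interval -0.44 to -0.12) missed the threshold (adjusted p = 0.058 by limma). It passed in 1 of 13 alternatives, with the dimmest 60% of clusters left out (adjusted p = 0.034). The change in both genes can be set side by side within each array. The value of Lyl1 minus that of Tal1 within an array was 3.60 to 3.75 in wild type and 2.41 to 2.81 in knockout, a shift of -1.05. An exact two-sided permutation test gave p = 0.10, the smallest value that 3 arrays against 3 can give. Levels of different probes are not comparable, so only the shift of this difference is read. Whether the probes of both genes respond alike was not tested.

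Lmo2, the bridging factor, was called lower by a small margin. The wild-type arrays read 10.76, 10.85 and 10.79 and the knockout arrays 10.60, 10.50 and 10.54. Its log2 change was -0.25 (SE 0.05; adjusted p = 0.040 by limma). The groups do not overlap, but the call was lost in 10 of 13 alternatives, with adjusted p-values of 0.053 to 0.16. These include each of the 6 fits without 1 array, where the adjusted p was 0.091, 0.15 and 0.14 on dropping wild-type array 1, 2 and 3 in turn, and 0.059, 0.097 and 0.092 on dropping the knockout arrays. The size itself stayed between -0.28 and -0.23.

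Gata2, a zinc finger factor required for HSC survival, gave overlapping groups, with 9.44, 9.58 and 9.53 in wild type and 9.53, 9.41 and 9.50 in knockout. The difference was -0.04 (SE 0.06), with a 95% interval of -0.19 to 0.12. Runx1, needed for the emergence of HSCs, read 11.44, 11.45 and 11.42 in wild type and 11.34, 11.17 and 11.38 in knockout. All knockout values were lower, array 2 most of all, and the difference of -0.14 (SE 0.07) did not pass (adjusted p = 0.29). Without knockout array 2 it was -0.08.

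Among the ETS genes Erg was lower. Its wild-type arrays read 12.02, 12.08 and 11.98 and its knockout arrays 11.55, 11.49 and 11.64. The gap between the groups was wider than the range within either. The log2 change was -0.47 (SE 0.06; adjusted p = 0.0065 by limma), or 1.38-fold lower on the scale assumed, and was called in all 13 alternatives. Fli1, the nearest relative of Erg in this set, read 13.29, 13.27 and 13.32 in wild type and 13.16, 13.05 and 13.18 in knockout. That difference of -0.16 (SE 0.05, 95% interval -0.28 to -0.04) did not pass (adjusted p = 0.12), though the groups do not overlap. Erg minus Fli1 shifted by -0.30, from a range of -1.34 to -1.19 in wild type to -1.61 to -1.54 in knockout (exact two-sided permutation p = 0.10, the smallest possible). Etv6 had 15.10, 15.13 and 15.12 in wild type and 15.13, 15.04 and 15.03 in knockout. Here knockout array 1 equalled the highest wild-type array, and the difference was -0.05 (SE 0.04, 95% interval -0.15 to 0.05).

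Hlf and Mecom are both used as markers of primitive HSCs, and 1 of the 2 was called. Hlf read 9.65, 9.68 and 9.75 in wild type and 9.14, 9.11 and 9.16 in knockout. The 3 knockout arrays agreed within 0.05, all well below wild type. The means were 9.69 ± 0.05 and 9.14 ± 0.03 (SD, n = 3 each), a log2 change of -0.56 (SE 0.06; adjusted p = 0.0028 by limma) or 1.47-fold lower, called in all 13 alternatives. Mecom read 7.23, 7.27 and 7.22 in wild type and 7.18, 7.02 and 7.14 in knockout. These groups are separated by only 0.04, and the difference of -0.13 (SE 0.07, 95% interval -0.29 to 0.03) did not pass (adjusted p = 0.35).

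Ordered by size, the changes ran Lyl1, Hlf, Erg, Tal1, Lmo2, Fli1, Runx1, Mecom, Etv6 and Gata2. From Hlf onwards each interval overlaps that of the next gene, whereas the interval of Lyl1 (-1.58 to -1.07) lies clear of that of Hlf (-0.69 to -0.42). Knockout array 2 held the lowest of the 3 knockout values in 8 of the 10 genes, against 36.3% of all clusters tested. Without that array the median change of the members was -0.18 and 3 were called lower.

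**Figure D2:**
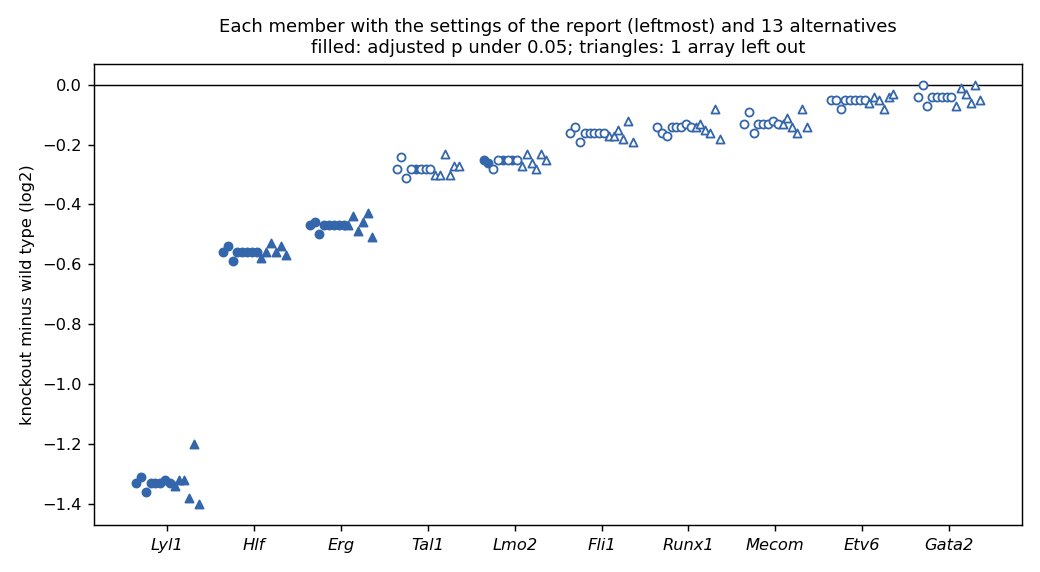
Log2 change of each gene with the settings of the report and 13 alternatives; filled symbols have an adjusted p under 0.05 and triangles leave out 1 array. Lyl1, Hlf and Erg are filled throughout, Lmo2 in few of the fits, and no alternative gives a value above 0.

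The products of some genes work directly with these factors. Of 13 complex partners, 2 fell and 0 rose (at an unadjusted p under 0.05, 2 were lower and 1 higher), with a median log2 change of -0.03. Ldb1, the scaffold that LMO2 binds, read 12.24, 12.11 and 12.15 in wild type and 11.94, 11.86 and 11.95 in knockout, a change of -0.25 (SE 0.06; adjusted p = 0.044 by limma). Ssbp2, which protects LDB1 from degradation, changed by -0.32 (SE 0.06; adjusted p = 0.023). In both genes the groups do not overlap. Neither call was kept throughout: the Ldb1 call was lost in 10 of 13 alternatives and that of Ssbp2 in 6. Neither gene was called when any wild-type array, or knockout array 2 or 3, was left out, and 1 was called when knockout array 1 was. The E protein genes Tcf3, Tcf4 and Tcf12 differed by -0.04, -0.03 and -0.01, and Cbfb, the partner of Runx1, by -0.06.

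Among 16 tested corepressors 3 fell and 0 rose (4 lower and 3 higher at an unadjusted p under 0.05), and the median was -0.01. Cbfa2t3, which encodes the ETO2 corepressor of TAL1 complexes, went from 10.73, 10.82 and 10.83 to 10.46, 10.28 and 10.24, a change of -0.47 (SE 0.07; adjusted p = 0.014 by limma). Gfi1, a zinc finger repressor, changed by -0.39 and Sin3b, a scaffold for histone deacetylases, by -0.31. Leaving out wild-type array 2 or 3 left 0 of these calls, and leaving out wild-type array 1 or knockout array 1 left 1.

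The ID inhibitor genes went the opposite way to the members. All 3 that were bright enough to test rose and 0 fell (the same counts at an unadjusted p under 0.05), and Id4 was below the filter. Id1 read 7.74, 7.91 and 7.90 in wild type and 8.87, 8.56 and 9.29 in knockout. It rose by 1.06 (SE 0.18; adjusted p = 0.017 by limma), or 2.08-fold, with a wide spread among the knockout arrays. Id2 went from 7.61, 7.39 and 7.36 to 8.31, 8.20 and 8.57, a rise of 0.91 (SE 0.12; adjusted p = 0.0071), or 1.87-fold. The change of Id3 was 0.34 (SE 0.07; adjusted p = 0.038). For all 3 genes every knockout array lay above every wild-type array. Of all clusters tested, 11.6% had this order and 2.96% were called higher. Id2 was called in all 13 alternatives. When any wild-type array or knockout array 1 was dropped, it was the only one called, with adjusted p-values of 0.052 to 0.065 for Id1. Id3 lost its call in 8 of 13.

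**Figure D3:**
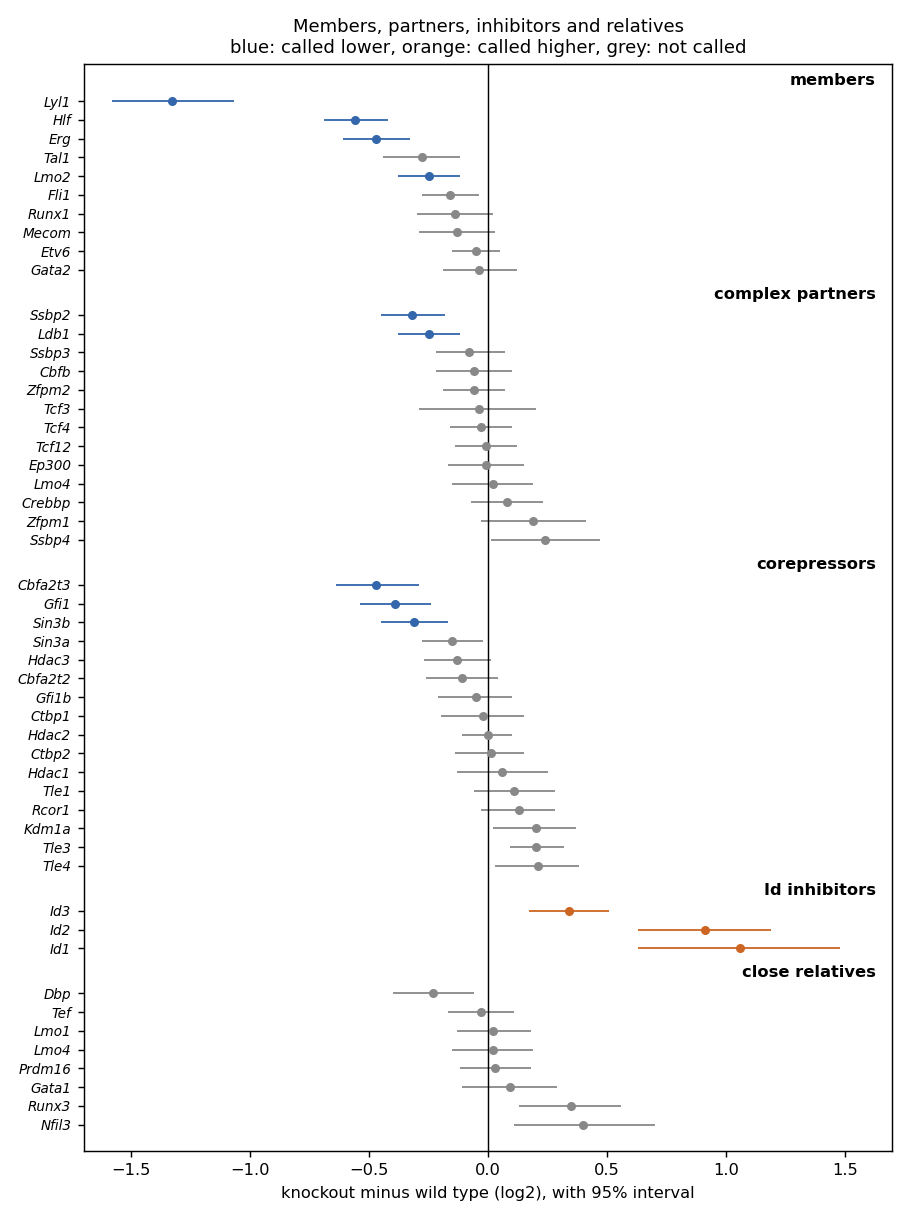
Log2 change with its 95% interval for the members and for tested partners, corepressors, ID inhibitors and close relatives, with called genes in blue (lower) or orange (higher). The 10 members all lie left of 0, Ldb1, Ssbp2 and Cbfa2t3 are among the blue points of their groups, and the 3 ID genes lie right of 0.

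Close relatives from the same protein families were read next. Of 8 tested close relatives 0 rose and 0 fell by limma (1 lower and 2 higher at an unadjusted p under 0.05), and the median was 0.03. Runx3, the relative of Runx1 with the smallest p in this list, had 9.75, 9.95 and 9.95 in wild type and 10.31, 10.09 and 10.29 in knockout, a difference of 0.35 (SE 0.09; adjusted p = 0.069). It passed in 1 of 13 alternatives, quantile normalization (adjusted p = 0.033). The HLF relatives Dbp and Tef differed by -0.23 and -0.03, and Nfil3, a further bZIP gene of the list, by 0.40 (adjusted p = 0.12 by limma). Gata1, the erythroid relative of Gata2, differed by 0.09. Of 12 other ETS genes 1 fell and 0 rose (5 lower and 2 higher at an unadjusted p under 0.05), with a median of -0.11. Elf1, an ETS activator in blood cells, was the 1 that fell, from 15.31, 15.24 and 15.22 to 14.86, 14.85 and 14.84, a log2 change of -0.41 (SE 0.04; adjusted p = 0.0024 by limma).

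HSC factors of other families were read from a further list. Of 19 tested, 9 fell and 0 rose (10 lower and 1 higher at an unadjusted p under 0.05), and the median was -0.28. Over all clusters tested, the share called lower was 4.84%. The count of 9 was 6 or 7 in each of the 6 fits without 1 array. Gfi1 and Hhex are among the 9 and are counted again among the targets below, and Gfi1 also among the corepressors above. Meis1, a homeobox cofactor of HOX proteins, changed by -0.86, Bcl11a, a zinc finger factor of lymphoid and fetal globin control, by -0.65, Myb, a driver of progenitor expansion, by -0.56 and Ikzf1, the lymphoid factor Ikaros, by -0.53, with adjusted p-values from 0.0012 to 0.0033. Myb was 14.66, 14.66 and 14.73 in wild type and 14.20, 14.06 and 14.10 in knockout, and its groups do not overlap. Ikzf1 and Bcl11a also serve lymphoid cells, so this list is not specific to stem cells.

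Genes described as targets of these factors split. Of 18 tested, 4 fell and 1 rose, with a median of 0.03 (5 lower and 3 higher at an unadjusted p under 0.05). Kit, the stem cell factor receptor, read 14.54, 14.53 and 14.53 in wild type and 14.06, 14.03 and 14.09 in knockout, a change of -0.47 (SE 0.04; adjusted p = 0.0013 by limma). Nfe2, a bZIP factor of platelet formation, changed by -0.71 and Hhex, a homeobox factor, by -0.68. Gfi1, on this list too, was the other that fell. Itga2b, the CD41 chain of the platelet integrin, rose by 0.56 (SE 0.07; adjusted p = 0.0069). Cd34, Eng and Cdk6 differed by -0.15, 0.02 and 0.01.

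The genes beside the members on the chromosome, from the RefSeq gene table, gave a measure of each locus. Of 14 nearest protein-coding neighbours that were tested, 1 was lower and 1 higher. Trmt1 and Dand5, on either side of Lyl1, differed by -0.02 and -0.15, and Nfix, which overlaps Lyl1 in that table, by 0.09, and none of these passed. Stxbp4, next to Hlf, was lower, with a change of -0.43 (SE 0.07; adjusted p = 0.012 by limma). Ets2, beside Erg, and Ets1, beside Fli1, differed by 0.28 and -0.19, with adjusted p-values of 0.088 and 0.11. The call on Stxbp4 was lost without wild-type array 1 (0.052) or 2 (0.061). Rpn1, next to Gata2, was higher by 0.43, a call that was lost on dropping wild-type array 2 (0.063) or 3 (0.061). Of 14 genes that overlap members, 4 had a cluster, and 2 of these, both noncoding, were lower. They were Gm17089 at Etv6, with a change of -0.55 (adjusted p = 0.012) and Gm10258 at Mecom, with one of -0.37 (adjusted p = 0.029). Gm22060, a noncoding gene at Fli1, changed by -0.66 and was not called (adjusted p = 0.086). The Gm17089 call was lost without wild-type array 2 (0.055), and that of Gm10258 when any array but knockout array 2 was left out (0.074 to 0.11). For these overlapping pairs it is not known which strand the probes read.

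For Lyl1, the member with the largest change, the 3 protein-coding genes of nearest pattern were Txnip, Gimap6 and Ifi209 among 12706 compared. The measure was the root mean square difference of profiles centred on their own mean over 6 arrays, which was 0.097, 0.103 and 0.108 on the log2 scale. It picks genes of like size of change, and each of the 3 was called lower, with log2 changes of -1.35, -1.30 and -1.13.

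Markers of other cell types moved alongside these results. Of 9 tested lymphoid and B cell markers 6 fell and 0 rose (6 lower and 0 higher at an unadjusted p under 0.05). Their mean log2 level was 7.02 to 7.03 in wild-type arrays and 6.38 to 6.44 in knockout arrays, with Dntt at -1.34 and Il7r at -1.08. Of 9 megakaryocyte markers 5 rose and 0 fell (8 higher and 0 lower at an unadjusted p under 0.05), and their mean level went from 6.43 to 6.45 up to 6.87 to 6.98. The largest rise on that list, 1.15, was that of F2r, which encodes the thrombin receptor PAR1 of human platelets. Mouse platelets use other thrombin receptors, so F2r is a poor marker of the lineage in this species. Selp, Itgb3, Gp9 and Itga2b, which encode platelet adhesion proteins or their chains, rose by 0.94, 0.60, 0.56 and 0.56, whereas Ppbp and Gp6 were below the filter in these arrays. The part of these markers in the results for the members and the ID genes was not tested.

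Several members are also active in endothelial cells, so markers of those cells were read too. Of 12 with a cluster, 8 were below the filter, among them Cdh5, Kdr, Sox17 and Cldn5. Of the 4 tested 1 fell and 0 rose (1 lower and 0 higher at an unadjusted p under 0.05). Pecam1, which HSCs also express, changed by -0.53. Among 8 erythroid markers Car1 was the 1 that fell, by 1.04 (3 lower and 0 higher at an unadjusted p under 0.05). Of 10 granulocyte markers 2 rose, Ctsg by 0.54 and Prtn3 by 0.43, and Gfi1 fell (1 lower and 3 higher at an unadjusted p under 0.05). Of these rises 0 were called once knockout array 1 or 3 was dropped, or wild-type array 2 or 3, and 1 once wild-type array 1 or knockout array 2 was. The fall of Gfi1 was lost on dropping any wild-type array or knockout array 1. Of 5 mast and basophil markers Cpa3 rose by 0.41, a call lost without wild-type array 3 (adjusted p = 0.051). At an unadjusted p under 0.05, 1 of these markers was higher and 1 lower. Of 4 T cell markers 0 changed by limma (1 higher and 0 lower at an unadjusted p under 0.05), and Cd4, with the smallest p, differed by 0.17. In the list used to check the HSC label, 2 of 8 tested genes fell and 0 rose (4 lower and 1 higher at an unadjusted p under 0.05). Kit fell as given above. Flt3, which marks multipotent and lymphoid-primed progenitors and is low or absent on long-term HSCs, fell by 0.89. The HSC markers Procr, Slamf1, Fgd5 and Tek differed by 0.08, -0.13, -0.15 and 0.16, and none of these 4 was called. Their wild-type means were 7.29, 5.78, 5.36 and 6.35. The other tested genes of this list, Kit, Cd34, Cd48 and Flt3, had wild-type means of 14.53, 15.97, 11.30 and 14.51. Cd48 differed by 0.03 and was not called. Levels of different probes are not comparable, and the share of progenitors among the sorted cells was not tested.

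**Figure D4:**
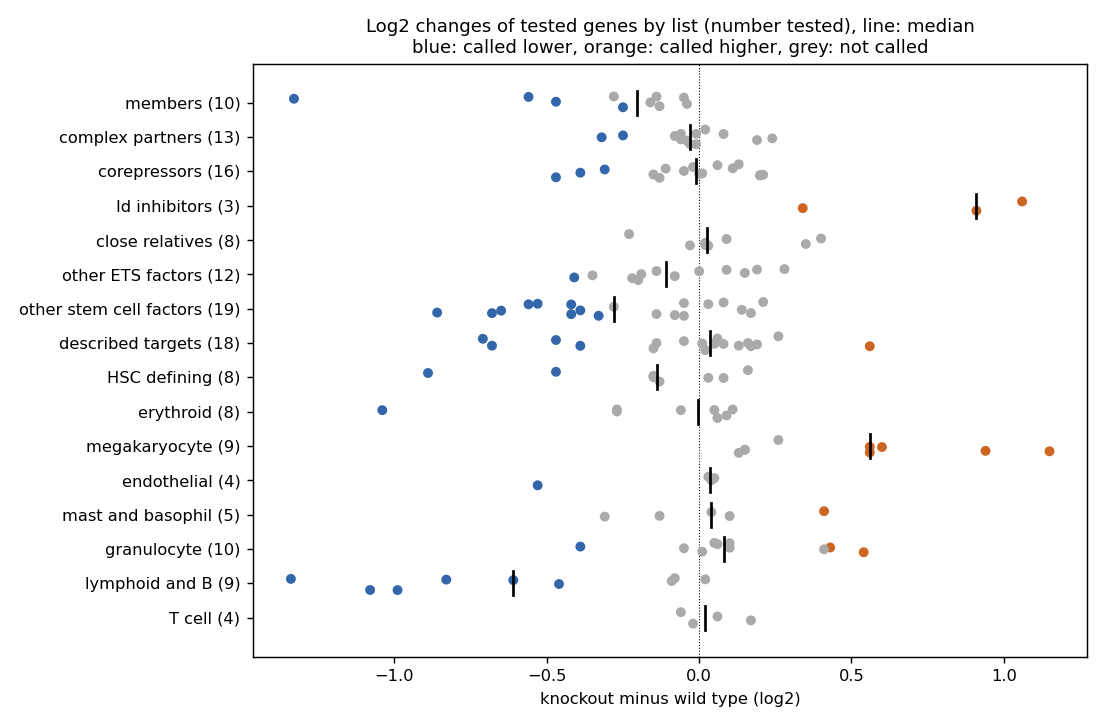
Log2 change of every tested gene in each list, 1 point per gene with the number tested in parentheses and a line at the median; vertical scatter within a row carries no meaning. The members, the other stem cell factors and the lymphoid and B markers lie mostly left of 0, and the ID inhibitors and megakaryocyte markers right of it.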

How the data were processed

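Gene expression was measured on 6 microarrays of sorted HSCs, 3 per genotype, grouped by the sample titles. The authors deposited 1 table of values, from 2.04 to 19.93 and taken here as log2, covering 65956 transcript clusters. The submitters' processing notes name MAS5 with no version or role; the log base and normalization of the values were not found in those notes or in the table, log2 was assumed, and every fold rests on that. Depth does not apply to arrays, and their number limits the precision.

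Platform annotation named clusters, with repeated symbols merged and gene IDs matched to RefSeq; 30604 clusters had 1 symbol and 2146 several, which were not named. The dimmest 40% of clusters by mean over 6 arrays (limit 4.09) were left out, and genotype was fitted with limma 3.58.1 (lmFit, eBayes with intensity trend) in R 4.3.3. Two-sided p-values were adjusted by the Benjamini-Hochberg method across 39543 clusters. The pipeline was tested on simulated data. The labels call the arrays biological replicates without naming animals, so p-values measure the spread between these arrays. Named genes were the members, Cdk19, up to 4 called genes per list with the smallest p (or the smallest p where none was called), nearest neighbours and nearest patterns; other genes are named beside these for their role, after their values were seen. Members and lists were chosen with earlier results of these data known. Tables and plots used Python 3.11.15, pandas 2.3.3 and matplotlib 3.10.9. Alternatives changed normalization, filter, trend, array weights and block, or left out 1 array.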

Additional observations from a re-analysis of the deposited data

How the results depend on the processing

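The count of members called lower was 4 and stayed between 3 and 5 over 14 alternatives, and 0 were called higher in each. It was 3 in each of the 6 fits without 1 array, 3 with a replicate block, 3 with arrays shifted to a common median, with no filter or with no trend, and 5 with the dimmest 60% left out, where Tal1 was added. Each member had 1 cluster, so the mean of its clusters gave the same count. Lyl1, Hlf and Erg kept their call in all 13 fits, with adjusted p-values (limma) up to 0.012, 0.024 and 0.043. No member changed direction. Deviations of same-numbered arrays correlated at -0.138, -0.097 and 0.025 over clusters, and those of arrays with different numbers at -0.127 to 0.209. With 3 arrays per genotype these values cannot decide whether arrays of the same number were paired. With the replicate block, 1083 clusters were called lower and 630 higher, against 1914 and 1172 without it, and the call on Lmo2 was lost (adjusted p = 0.16), as were those on Ssbp2 (0.11), Ldb1 (0.11), Cbfa2t3 (0.067), Gfi1 (0.075), Sin3b (0.11), Id3 (0.12), Ctsg (0.073), Prtn3 (0.059), Stxbp4 (0.068), Gm17089 (0.055) and Gm10258 (0.071). Without wild-type array 3, 764 clusters were called lower and 542 higher. The 6 arrays of unknown scale limit what small changes can show.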
